A study of Homo sapiens with 36 samples.

Results

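The genes described here are the nuclear-encoded subunits of the mitochondrial respiratory chain. They were chosen by gene symbol: the NDUFA, NDUFB, NDUFC, NDUFS and NDUFV families, SDHA to SDHD, 8 UQCR genes, 12 COX subunit genes and the ATP5F1, ATP5P and ATP5M families. The symbols picked out 76 of the 62710 genes in the table: 36 of complex I, 4 of complex II, 8 of complex III, 13 of complex IV (NDUFA4 among them) and 15 of complex V. The symbol rule uses no measured value, although it was set with earlier results of these data known.

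Gene expression was measured by RNA sequencing in 36 libraries of H9 cells, an established human embryonic stem cell line, during neuronal differentiation driven by doxycycline-dependent NGN2, a proneural transcription factor. The labels give 3 genotypes of RAI1, a chromatin-associated nuclear protein: WT, HET (RAI1+/-) and KO (RAI1-/-). The sampling days were 0, 3 and 7, with 4 biological replicates in each of the 9 groups. All groups carry the NGN2 system, and day 0 precedes differentiation although every library is labelled iNeuron. How many edited clones stand behind the HET and KO groups, and whether replicates came from separate differentiations, is not given in the sources used here, so p-values measure the spread between these libraries.

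The respiratory chain sits in the inner mitochondrial membrane. Complex I takes electrons from NADH and complex II from succinate, complex III passes them to cytochrome c, and complex IV reduces oxygen with them. Complexes I, III and IV pump protons, and complex V, the ATP synthase, makes ATP as protons return. Most subunits are encoded in the nucleus and imported, whereas a few core subunits of complexes I, III, IV and V are encoded in mitochondrial DNA. Neurons are known to rely heavily on this pathway, and stem cells comparatively more on glycolysis. The factors NRF1, GABPA (an ETS family protein) and YY1 are known regulators of many of these nuclear genes.

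A start-region sequence of RefSeq (GRCh38.p14, 250 bases before to 50 bases after the annotated start) was matched for 61 of the 76 genes. The NRF1 motif GCGCANGCG was present on either strand in 32.8% of the 61, against 8.05% of all 27305 such regions and 11% of the 15843 of protein-coding genes. The ETS motif CCGGAAGT was present in 14.8% (4.44% of all regions, 6.19% of coding ones) and the YY1 motif AAGATGGCG in 13.1% (1.85% of all, 2.74% of coding ones). The motif CCAAT, bound by NF-Y, was present in 31.1% against 35.7% of all regions and 36.4% of coding ones, so its share was not above that of other genes. Of the 61, 31 held at least 1 of the first 3 motifs (50.8%, against 13.1% of all regions and 18.1% of coding ones), and in no region did matches of different motifs overlap. These are letter matches only.

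For NDUFB4, the member called at day 0, and for ATP5MC1 and ATP5MC2, which encode the same protein and were called in opposite directions at day 7, the 250 bases before the RefSeq start are shown with motif matches in capitals. RefSeq starts differ from the GENCODE 29 gene bounds given later, and the stretch of ATP5MC2 lies inside its GENCODE bounds. ATP5MC1 was higher and ATP5MC2 lower in KO at day 7, the latter call lost when any of 6 single libraries was left out. Their regions lie at chr17:48892537-48892786 on the plus strand and chr12:53676084-53676333 on the minus strand. The first held 4 CCAAT matches and none of the other motifs, and the second held 1 NRF1 match and no CCAAT. NDUFB4, a complex I subunit gene that was higher in both mutants at day 0, has its region at chr3:120596086-120596335 on the plus strand. It held 3 NRF1 matches, of which the first 2 overlap on opposite strands, and 1 more that runs past the end of the stretch shown.
ATP5MC1: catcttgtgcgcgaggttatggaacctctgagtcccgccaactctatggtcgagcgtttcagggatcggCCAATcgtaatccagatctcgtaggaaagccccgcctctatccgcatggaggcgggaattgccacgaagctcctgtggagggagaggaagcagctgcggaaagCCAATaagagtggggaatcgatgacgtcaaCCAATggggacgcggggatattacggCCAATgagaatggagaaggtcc
ATP5MC2: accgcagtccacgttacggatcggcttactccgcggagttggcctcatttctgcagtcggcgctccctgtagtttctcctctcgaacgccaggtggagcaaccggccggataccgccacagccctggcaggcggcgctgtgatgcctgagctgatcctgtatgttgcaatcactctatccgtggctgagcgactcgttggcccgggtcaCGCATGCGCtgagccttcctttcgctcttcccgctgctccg
NDUFB4: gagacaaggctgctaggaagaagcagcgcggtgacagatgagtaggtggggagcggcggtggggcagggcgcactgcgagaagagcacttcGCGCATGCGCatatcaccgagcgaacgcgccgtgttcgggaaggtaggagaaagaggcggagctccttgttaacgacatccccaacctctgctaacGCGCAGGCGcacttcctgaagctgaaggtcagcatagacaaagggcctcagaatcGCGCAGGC

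Library totals ran from 23.95 to 56.68 M counts. RAI1 itself was not lower in the libraries labelled mutant: it averaged 33.5 ± 8.26 CPM (counts scaled to library size by the TMM method, as are all CPM here; SD, n = 4) in WT, 38.1 ± 7.84 in HET and 37.1 ± 12.3 in KO at day 0, and 52.4 ± 15.3, 73.3 ± 15.7 and 84.7 ± 14.2 at day 7. Where the edit lies in the gene is not given in the sources used here, so RAI1 counts did not check the genotype labels, and groups are named as labelled. A set of 5 small structural RNAs (RMRP, RPPH1, RN7SK and the RN7SL1 and RN7SL2 copies of the signal recognition particle RNA) took 47.9 to 86.5% of the deposited TPM. Levels per length are therefore given as TPM rescaled without these 5. Stem cell markers (5 genes, rescaled TPM summed) ran from 1570 to 2070 in WT at day 0 and from 42.6 to 55.9 at day 7, when POU5F1, NANOG and TDGF1 each averaged under 1. Neuron markers (7 genes) summed to 182 to 390 and 4030 to 9070 in the same groups. Neural progenitor markers ran from 56.4 to 442 over all libraries and glial ones from 3.72 to 181, with GFAP and AQP4 under 1 in all groups at day 7. Mesenchyme markers ran from 0.117 to 372 and muscle and heart markers from 0.859 to 231.

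Among the members, COX7A2, a small subunit of complex IV, had the highest mean level (1066 rescaled TPM over the 36 libraries), followed by NDUFA13 of complex I (921.3) and ATP5F1B, the catalytic beta subunit of ATP synthase (888.9). NDUFV3 of complex I had the lowest level among members that could be tested (21.66 rescaled TPM). COX4I2 and COX7A1, the lung-type and muscle-type isoforms of complex IV subunits, had at most 5 and 2 counts in any library and were not tested. Their partners COX4I1 and COX7A2 held at least 99.9% of each pair's TPM in every library. The other 74 members were tested in every comparison.

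Most calls among the members were between days in WT. From day 0 to day 3 in WT, 53 of the 74 tested members rose and 1 fell, with complexes III and IV rising throughout. A member is called here when its Benjamini-Hochberg adjusted p over all genes tested is under 0.05 in edgeR's quasi-likelihood test. Over all 22268 genes tested in WT, 31.2% were called higher and 28.7% lower at day 3. The members' median log2 fold change was 0.67 and that of all genes 0.07.
By complex, 20 of 36 genes of complex I rose, 1 of 4 of complex II, 8 of 8 of complex III, 11 of 11 tested of complex IV and 13 of 15 of complex V. The summed level of complex IV in WT was 3765, 3754, 3852 and 3997 rescaled TPM in the 4 libraries of day 0 and 6364, 5578, 7502 and 6970 at day 3. That of complex V was 4771, 4955, 4951 and 5190 at day 0 and 5708, 5536, 5612 and 5817 at day 3. On this scale both complexes were higher in every library of day 3 than in any of day 0. On the deposited TPM complex V was lower, at 1959 to 2293 at day 0 and 1186 to 1829 at day 3. Complex IV overlapped there, at 1509 to 1810 and 1535 to 2040. The summed level of complex II also depended on the scale. It was 378.9 to 390.7 rescaled TPM at day 0 and 278 to 342.5 at day 3, but 226.5 to 244.2 CPM and 227.9 to 306.5 CPM, which overlap.
COX7A2 had 57.7, 60.7, 58 and 63.7 CPM in the WT libraries of day 0 and 190.2, 145.2, 308 and 251.2 at day 3. All 4 libraries of day 3 were above all of day 0, with a wide spread among those of day 3. The log2 fold change was 1.90 (SE 0.24, adjusted p = 8.6e-06 by edgeR). NDUFA13, an accessory subunit of complex I, rose by 1.64 (SE 0.21) and NDUFB2, an accessory subunit of the membrane arm of complex I, by 1.58 (SE 0.24). NDUFV1, the subunit that binds NADH, rose by 0.91, UQCRC1, a core subunit of complex III, by 0.70, UQCRFS1, its Rieske iron-sulfur protein, by 0.27, and ATP5F1A and ATP5F1B, the alpha and beta subunits of ATP synthase, by 0.36 and 0.47. SDHA, the flavoprotein of complex II, rose by 0.59, but 25.9% of the reads counted on it or its pseudogenes lay on the pseudogenes, so its values are uncertain. NDUFS1, the large iron-sulfur subunit of complex I, and SDHB, the iron-sulfur subunit of complex II, were not called.
The exception was ATP5MC1, the only member that fell. It had 29.3, 33.4, 29.6 and 30.6 CPM at day 0 and 17.8, 16, 17.4 and 17.3 at day 3, with no overlap (log2 fold change -0.85, SE 0.12, adjusted p = 3.43e-05 by edgeR).

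**Figure D1:**
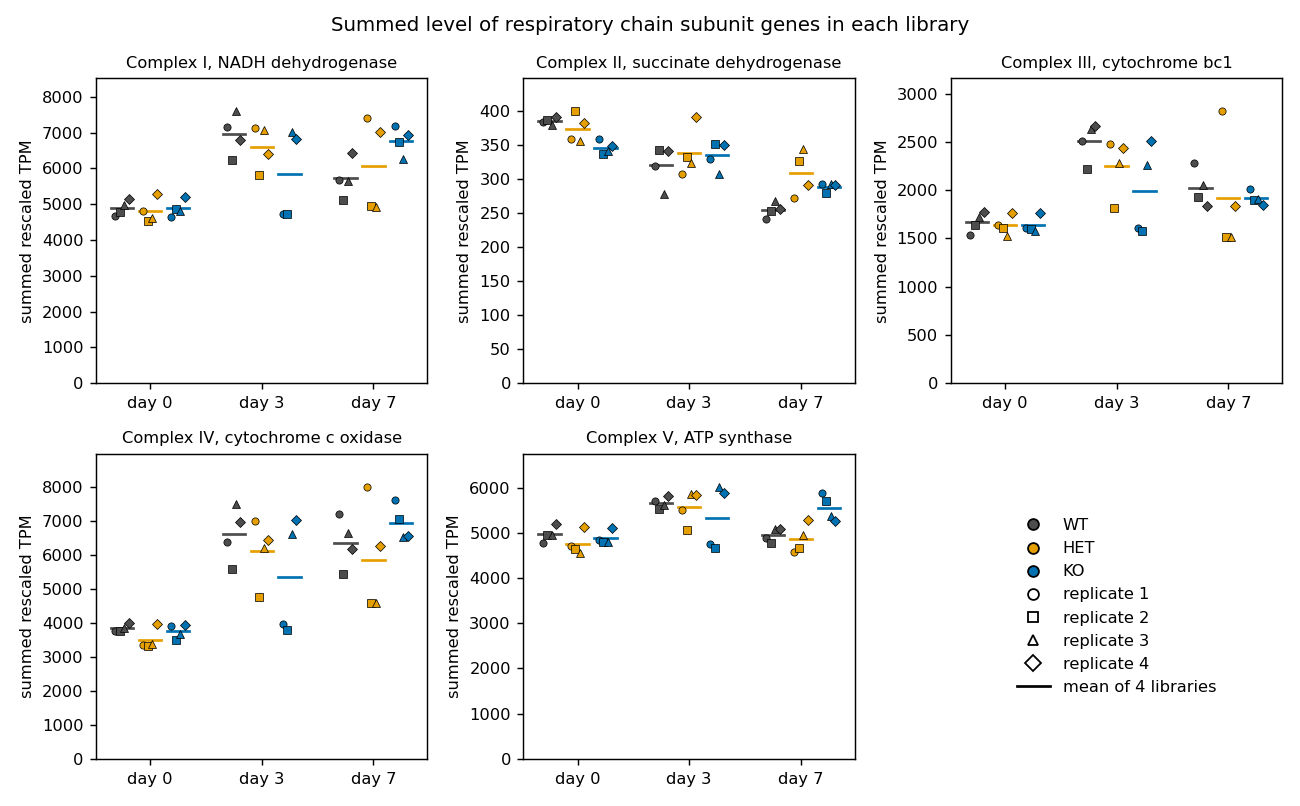
Summed rescaled TPM of the subunit genes of each complex (vertical axis) in each of the 36 libraries, by day and genotype; symbols mark the replicate and lines the mean of 4 libraries. Complex IV in WT rises from 3754 to 3997 at day 0 to 5578 to 7502 at day 3, and KO replicates 1 and 2 at day 3 lie apart from replicates 3 and 4.

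The direction of this change depends on the scale. With limma on the deposited log2(TPM + 1), 6 members were higher and 30 lower at day 3, with a median of -0.35 beside -0.63 for all genes; on TPM rescaled without the 5 small RNAs, 36 were higher and 11 lower, with medians of 0.33 and -0.12. On each scale the members' median lay above that of all genes. The 5 small RNAs took 4.51 to 6.42% of counts in WT at day 0 and 8.99 to 19.6% at day 3. With their share as a covariate in edgeR, 29 members were called higher and 3 lower. The share of all genes called under that fit is not given here.
Median changes were higher for shorter genes. Members with an effective length under 300 bases had a median of 0.91 and other genes of that length 0.63; members of 1500 bases and over had 0.31 and other such genes -0.15. With effective lengths, recovered from the deposited values, as an offset, 50 members were called higher and 3 lower.

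Of the 13 subunits encoded in mitochondrial DNA, 11 fell from day 0 to day 3 in WT and none rose, with a median of -0.72. MT-ND1, a core subunit of complex I, fell by 1.75 on the log2 scale (adjusted p = 0.000117, edgeR), from 594 ± 154 to 177 ± 15.9 CPM (SD, n = 4), and MT-CO1, the catalytic subunit of complex IV, fell by 0.62 (adjusted p = 0.0217), from 4800 ± 1320 to 3130 ± 85.8 CPM. Assembly factors, proteins that build the complexes without staying in them, were mixed: 21 of 56 rose and 10 fell (median 0.24), with SDHAF4 of complex II higher by 2.17 and the copper chaperone SCO1 lower (-1.55). The shares of all genes were 31.2% and 28.7%. Of 15 regulators of mitochondrial biogenesis, ESRRB rose by 2.45 and 5 fell, among them PPRC1, a PGC-1 family coactivator (-2.61), and TFAM, which packages mitochondrial DNA and starts its transcription (-1.29). Of 16 genes of the citric acid cycle and pyruvate dehydrogenase, 2 rose and 3 fell. Of 10 tested subunits outside the symbol rule, 6 rose and 1 fell: CYCS, which encodes cytochrome c, fell by 1.05 (adjusted p = 0.000202, edgeR).

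From day 3 to day 7 in WT, 32 members fell and 1 rose. Over all genes 22.9% were called lower and 23.3% higher, so the members' split was one-sided where that of all genes was even. Other genes of shorter effective length also leaned lower, though less one-sidedly. Under 300 bases 77 were higher and 147 lower, at 300 to 600 bases 227 and 314, and at 600 to 1500 bases 1114 and 1469. At 1500 bases and over 3653 were higher and 3047 lower. The members' median was -0.34. By complex, 15 of 36 fell in complex I, 2 of 4 in complex II, 4 of 8 in complex III, 3 of 11 in complex IV and 8 of 15 in complex V; the riser was COX4I1 (0.39, adjusted p = 0.0449 by edgeR, overlapping groups).
SDHD, a membrane anchor of complex II, had 35.7, 48.9, 46.3 and 60.3 CPM at day 3 and 17.1, 10.5, 16.3 and 9.95 at day 7. Every library of day 7 was below every library of day 3 (log2 fold change -1.83, SE 0.20, adjusted p = 3.59e-06, edgeR). NDUFB2 fell by 1.77 (SE 0.24), which took it from 62.1 to 117.6 CPM to 17.8 to 35.5, a range that overlapped that of day 0 (24.4 to 36.2). NDUFB6, another accessory subunit of complex I, fell by 1.16 (SE 0.19). In GENCODE 29 SDHD, NDUFB2 and NDUFB6 overlap genes on the opposite strand (TIMM8B, NDUFB2-AS1 and SMIM27). Use of strand in the counting is not given in the sources used here, and without it such reads cannot be told apart.
On the deposited TPM, 55 members were lower and none higher, and with the small RNA share as a covariate 50 were lower and none higher. Shares of all genes called under these fits are not given here. Of the mitochondrially encoded subunits, 3 rose (MT-ND6 by 0.91, MT-ND5 by 0.70 and MT-CO1 by 0.59) and none fell. Of the assembly factors 4 rose and 23 fell, of the citric acid cycle genes 2 rose and 9 fell, of the other subunits 4 fell, and of the regulators 3 rose and 7 fell. PPARGC1A, the coactivator PGC-1alpha, rose by 3.09 while PPARGC1B fell by 1.78.

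**Figure D2:**
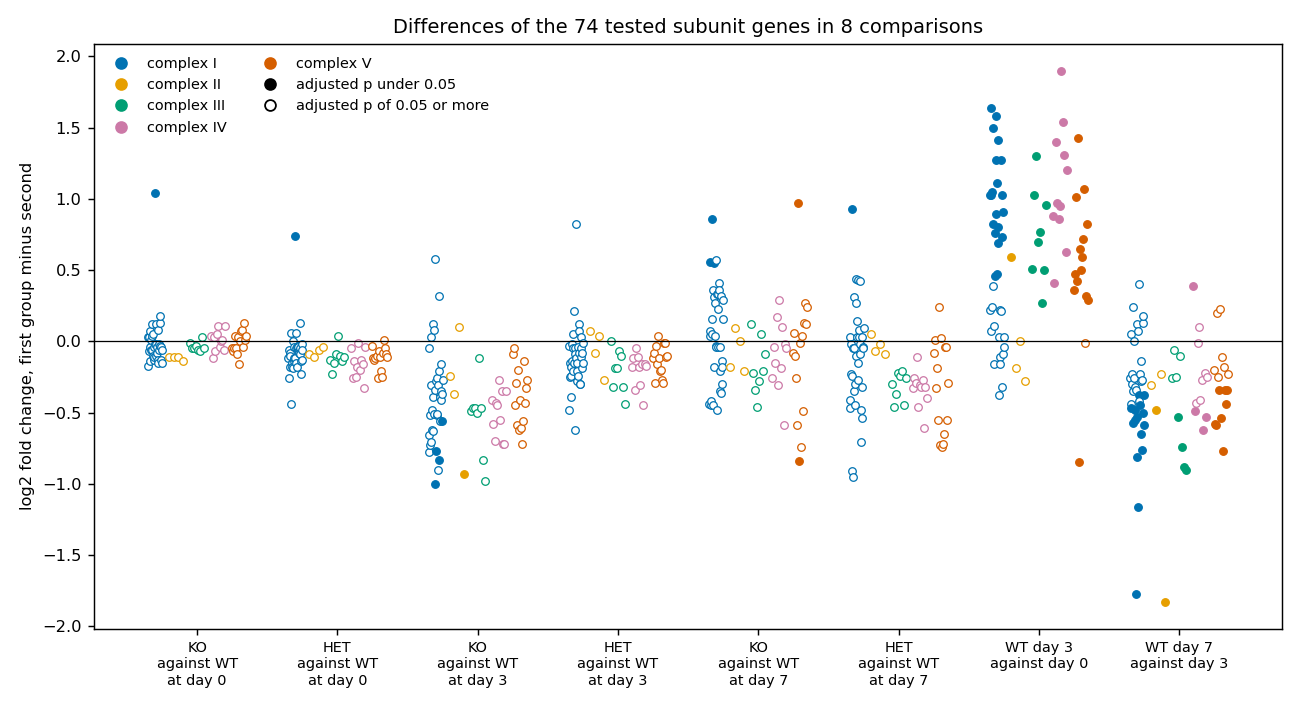
Log2 fold change (vertical axis, first group minus second) of the 74 tested genes in 8 comparisons, coloured by complex; filled points passed an adjusted p of 0.05 in edgeR's test. In WT, 53 points are filled above 0 for day 3 against day 0, and 1 point is filled in each mutant at day 0, NDUFB4.

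At day 0, 1 member was called between a mutant and WT. NDUFB4, an accessory subunit of the membrane arm of complex I (chromosome 3, 120596309 to 120602500 in GENCODE 29 on GRCh38, overlapping no other gene), was the only member called in KO against WT and the only one in HET against WT. It had 18.8, 17.5, 15.7 and 17.9 CPM in WT, 26.9, 24.7, 29.2 and 34.4 in HET, and 37.1, 30.3, 33.9 and 39.4 in KO. All HET and KO libraries lay above all WT libraries, and HET and KO overlapped. The log2 fold change was 1.04 in KO (SE 0.11, adjusted p = 8.06e-05) and 0.74 in HET (SE 0.11, adjusted p = 0.0016; both edgeR); both comparisons use the same WT libraries.
Over all 20437 genes, 1.66% were called higher and 0.416% lower in KO, and 1.22% and 0.411% in HET. The other 73 members ranged within -0.17 to 0.18 in KO. In HET most members leaned down without passing the test: 67 of 74 had a log2 fold change below 0, the lowest -0.44. The median in HET was -0.11 beside 0.01 for all genes, and 11 of 74, NDUFB4 among them, had an unadjusted p under 0.05 by edgeR. Other short genes leaned down as well. Under 300 bases of effective length the median was -0.16 for members and -0.10 for other genes, and at 300 to 600 bases -0.13 and -0.06. At 1500 bases and over it was -0.06 and 0.03. In KO against HET no member was called by edgeR or DESeq2 (11 at an unadjusted p under 0.05), where 0.524% of all genes were higher and 0.333% lower. Pseudogenes of NDUFB4 held 0.844% of the reads counted on it or them. Without HET replicate 4, 4 members were called in HET against WT and 2 in KO against HET. The numbers of the replicates paired the KO and WT libraries of day 0; with that block NDUFB4 stayed the single member called while the calls over all genes rose from 425 to 960.
The difference in NDUFB4 was not called at later days. At day 3 it had 26, 19.7, 22.6 and 29.1 CPM in WT, 49.4, 32.3, 38.9 and 48.8 in HET and 17.5, 19.6, 50.1 and 60 in KO. HET libraries were again all above WT, but KO replicates 1 and 2 were below the lowest WT library (log2 fold change 0.82, adjusted p = 0.298 in HET; 0.58, adjusted p = 0.253 in KO; edgeR). At day 7 the KO libraries (34.1 to 41.5 CPM) were all above WT (20.9 to 32.0), with a log2 fold change of 0.57 and an adjusted p of 0.201 by edgeR. The HET libraries of day 7 had 69.4, 19.9, 20.6 and 35.2 CPM. Replicates 2 and 3 of HET were thus below the lowest WT library.
No gene of the other lists was called in KO at day 0, assembly factors, regulators, citric acid cycle, mitochondrially encoded and other subunits included. In HET, NDUFAF1, an assembly factor of complex I, fell by 0.98 (adjusted p = 2.39e-05, edgeR), at 6.95 ± 0.436 CPM against 14.0 ± 0.671 in WT and 12.1 ± 0.855 in KO (SD, n = 4). It was lower in HET at day 3 too (log2 fold change -0.90, adjusted p = 0.0111), and KO exceeded HET by 0.80, 1.09 and 1.08 at days 0, 3 and 7 (adjusted p = 0.000353, 0.00395 and 0.00624; edgeR).

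At day 3, 5 members were lower in KO than in WT and none higher: 4 of complex I and SDHD. Over all 21563 genes 12.6% were called higher and 8.93% lower, so the members' share called lower, 6.76%, was near that background. Most members leaned the same way without passing the test: 68 of 74 had a log2 fold change below 0, with a median of -0.44 beside -0.05 for all genes.
NDUFS3, a core subunit of the peripheral arm of complex I, had 58.2, 58, 71.7 and 61.9 CPM in WT, 49, 44, 51.3 and 56.4 in HET, and 28.2, 26.5, 44.7 and 43.1 in KO. The KO libraries were all below the WT libraries, replicates 1 and 2 furthest (log2 fold change -0.83, SE 0.19, adjusted p = 0.00746). SDHD had 35.7, 48.9, 46.3 and 60.3 CPM in WT and 17.3, 21.5, 28.4 and 34.5 in KO, also without overlap (-0.93, SE 0.23, adjusted p = 0.0109). NDUFB2 had 88.2, 62.1, 117.6 and 83.6 CPM in WT and 30.9, 29.7, 54.8 and 61.4 in KO (-1.0, SE 0.29, adjusted p = 0.0253; all edgeR). NDUFB6 (-0.77) and NDUFV1 (-0.56) were the other 2. In GENCODE 29 NDUFS3 overlaps PTPMT1, KBTBD4 and CELF1, and NDUFB2 overlaps ADCK2 and BRAF, so part of their counts could be shared.

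**Figure D3:**
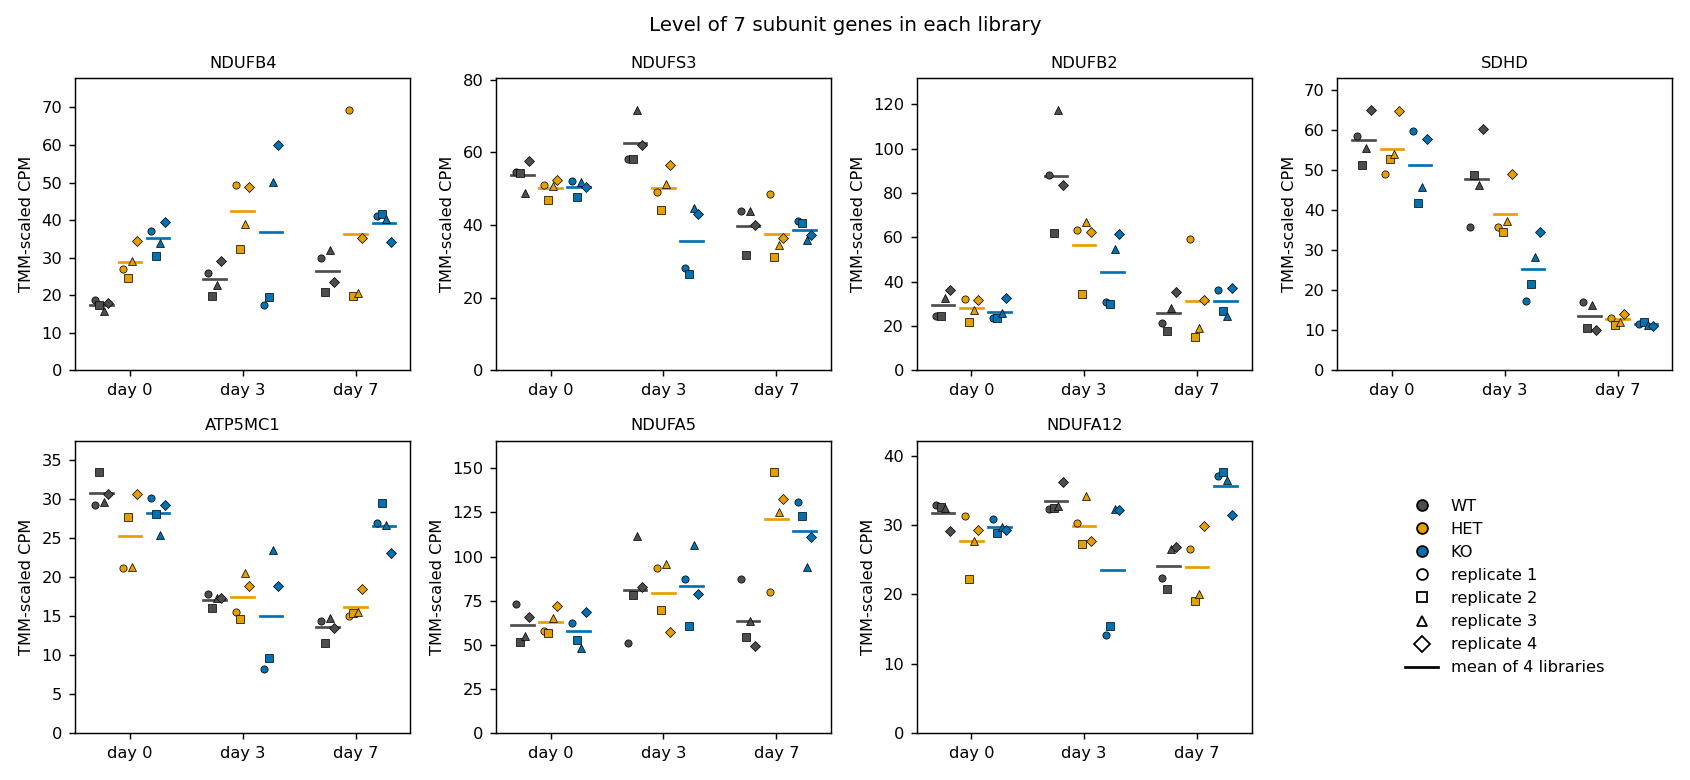
TMM-scaled CPM (vertical axis) of 7 subunit genes in each library, by day and genotype, with the replicate as symbol and the mean of 4 libraries as line. NDUFB4 separates WT from both mutants at day 0, NDUFS3 and SDHD separate KO from WT at day 3, and ATP5MC1 in KO at day 7 (23.1 to 29.6) lies above the other genotypes.

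The KO libraries of day 3 fell into pairs. Summed over the 76 genes they held 15380 and 15110 rescaled TPM in replicates 1 and 2 and 22220 and 22600 in replicates 3 and 4, whereas the WT libraries held 22070, 19920, 23630 and 22590. The small structural RNAs took 4.92 and 3.54% of counts in the first pair and 14.9 and 18.8% in the second, and 10.4, 8.99, 19.6 and 18.1% in WT. Low small RNA share and low member level thus went together, also in HET replicate 2 of day 3 (5.11%, 17790 rescaled TPM) and HET replicates 2 and 3 of day 7 (2.84 and 4.17%, 16020 and 16330). Within WT of day 7 the members' sum ran from 17500 to 20300 at shares of 14.5 to 25.6%. With the share as a covariate, 13 members were called lower and 1 higher in KO at day 3, and the median moved to -0.28. How many of all genes were called under that fit is not given here.
Other markers moved with genotype at the same day. Neuron markers summed to 3370 to 8190 rescaled TPM in KO, 1480 to 3250 in HET and 1020 to 1310 in WT. Proliferation markers (5 genes) summed to 240 to 591 in KO and 452 to 847 in WT. Muscle and heart markers summed to 105 to 231 in KO and 22.6 to 56.7 in WT, most of it ACTC1 (mean 155 and 37.2). DES was at 2.4 and 0.728, TNNT2 went the other way at 1.16 and 3.62, and MYH6 and MYH7 were under 1. The part of these markers in the members' difference was not tested, and fewer cells of a type cannot be told apart from less RNA per cell in bulk samples.
The replicate numbers paired KO with WT at day 3. With that block 31 members were called lower and none higher (37.7% of all genes called either way), and 27 lower with the effective length offset added. Without WT replicate 1, KO replicate 1 or KO replicate 2 the count fell to 2, without WT replicate 3 or 4 to 3, and without KO replicate 4 it rose to 12. NDUFB2 lost its call without WT replicate 1 or 3 or KO replicate 1 or 2; SDHD and NDUFS3 kept theirs without any single library. On the deposited TPM no member was called. Length went with the difference here too: members under 300 bases had a median of -0.62 and other genes of that length -0.49, against -0.26 and 0.11 at 1500 bases and over.
In HET no member was called at day 3 by edgeR or DESeq2 (1 at an unadjusted p under 0.05; median -0.14), where 2.52% of all genes were higher and 0.761% lower; the replicate block, which also held for this pair, called 1 lower. In KO against HET none was called by either tool (3 at an unadjusted p under 0.05; median -0.30), with 2.77% and 1.58% of all genes called.

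**Figure D4:**
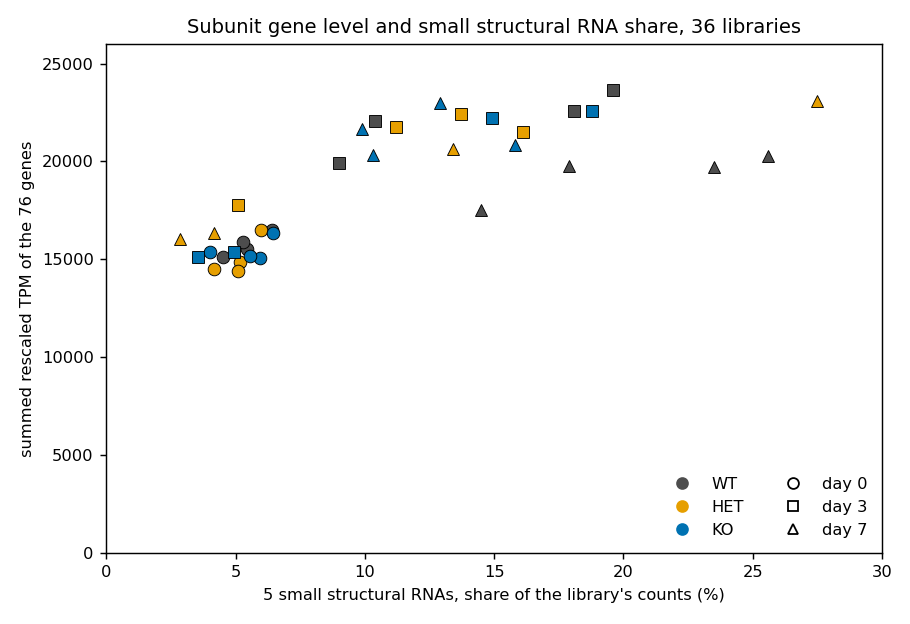
Summed rescaled TPM of the 76 genes (vertical axis) against the share of counts taken by 5 small structural RNAs (horizontal axis, %), 1 point per library, coloured by genotype and shaped by day. Libraries with a share under 7% hold 14400 to 17790 whatever their day, and those above hold 17500 to 23630.

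Genes that support the chain were compared at day 3 in KO as well. Of the regulators, PPARGC1A rose by 2.30 (adjusted p = 0.00024), ESRRB by 2.46 (adjusted p = 0.000141) and ESRRG by 2.19 (adjusted p = 0.00065; all edgeR), the last 2 being estrogen-related receptors that act with PGC-1 coactivators; GABPB1 fell by 0.51. PPARGC1A averaged 8.6 ± 1.48 CPM in KO and 1.73 ± 0.73 in WT, ESRRB 13.4 ± 4.45 and 2.4 ± 0.431, and ESRRG 10.6 ± 3.36 and 2.32 ± 0.676 (SD, n = 4). In WT these 3 genes were at 14.6 ± 7.56, 6.65 ± 2.28 and 9.62 ± 3.85 CPM at day 7. Of 56 assembly factors 4 fell, UQCC2, UQCC3, COA6 and ACAD9, and COX19 rose, both smaller shares than the 8.93% of all genes called lower and the 12.6% called higher. Of the citric acid cycle genes SUCLG2 (-1.19) and IDH3A (-0.49) fell. No mitochondrially encoded subunit was called.

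At day 7, 4 members were higher and 1 lower in KO than in WT, while 17% of all 21714 genes were called higher and 15.6% lower. The members' share called, 6.76%, was below that of all genes, 32.6%, and their median was -0.04. The risers were ATP5MC1 and the complex I genes NDUFA5, NDUFA12 and NDUFA9, and ATP5MC2 fell.
ATP5MC1, ATP5MC2 and ATP5MC3 encode the same mature protein, subunit c, which forms the rotating ring of ATP synthase in the membrane. The 3 genes differ in their mitochondrial import peptides. ATP5MC1 (chromosome 17, 48892765 to 48895871) had 14.4, 11.6, 14.8 and 13.5 CPM in WT, 15, 15.4, 15.6 and 18.5 in HET, and 26.9, 29.6, 26.7 and 23.1 in KO. KO lay above both other genotypes in every library, by 0.97 over WT (SE 0.14, adjusted p = 0.000351) and by 0.73 over HET (SE 0.14, adjusted p = 0.0202; edgeR). ATP5MC1 was thus at the level of day 0 in KO (25.4 to 30.1 CPM), while WT stayed low.
ATP5MC2 (chromosome 12, 53632726 to 53677408) had 273.6, 190.8, 278.5 and 217.5 CPM in WT and 127.4, 150.2, 140.1 and 118.4 in KO, without overlap (-0.84, SE 0.27, adjusted p = 0.0307, edgeR). In HET it had 255.3, 94.1, 107.1 and 123.4, replicate 1 within WT and the other replicates below it (-0.73, adjusted p = 0.0871). ATP5MC3 did not pass the test in either mutant (-0.01 in KO, 0.02 in HET).
As a share of the 3 genes' summed TPM, ATP5MC1 made up 12.5, 14, 12.4 and 12.3% in WT at day 0, 5.21, 5.70, 5.20 and 4.14% at day 3 and 3.99, 4.18, 3.86 and 4.34% at day 7. In KO it made up 12.8, 13.7, 11.4 and 12.7% at day 0, 5.23, 6.39, 7.78 and 5.48% at day 3 and 11.8, 12.2, 11.6 and 10.8% at day 7. The share fell to day 3 in both genotypes; at day 7 it was low in WT and near that of day 0 in KO. In HET at day 7 it was 3.62% in replicate 1 and 9.25, 8.69 and 9.07% in the others. ATP5MC2 made up 68.2% ± 3.00 (SD, n = 4) in WT at day 7, 55.2% ± 2.31 in HET and 52.2% ± 2.49 in KO, and ATP5MC3 27.7% ± 2.90, 37.2% ± 0.491 and 36.2% ± 2.86. The KO and WT shares of all 3 genes at day 7 did not overlap. Each gave p = 0.0286 in a two-sided exact permutation test, the smallest value 4 libraries against 4 can give, and 0.0944 after adjustment over 33 such tests, so none passed 0.05. The small structural RNAs took 14.5 to 25.6% of counts in WT and 9.9 to 15.8% in KO at day 7, and 27.5, 2.84, 4.17 and 13.4% in HET replicates 1 to 4. The HET library with the highest small RNA share thus had the lowest ATP5MC1 share, and the part of the small RNAs in the ATP5MC1 share was not tested.

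**Figure D5:**
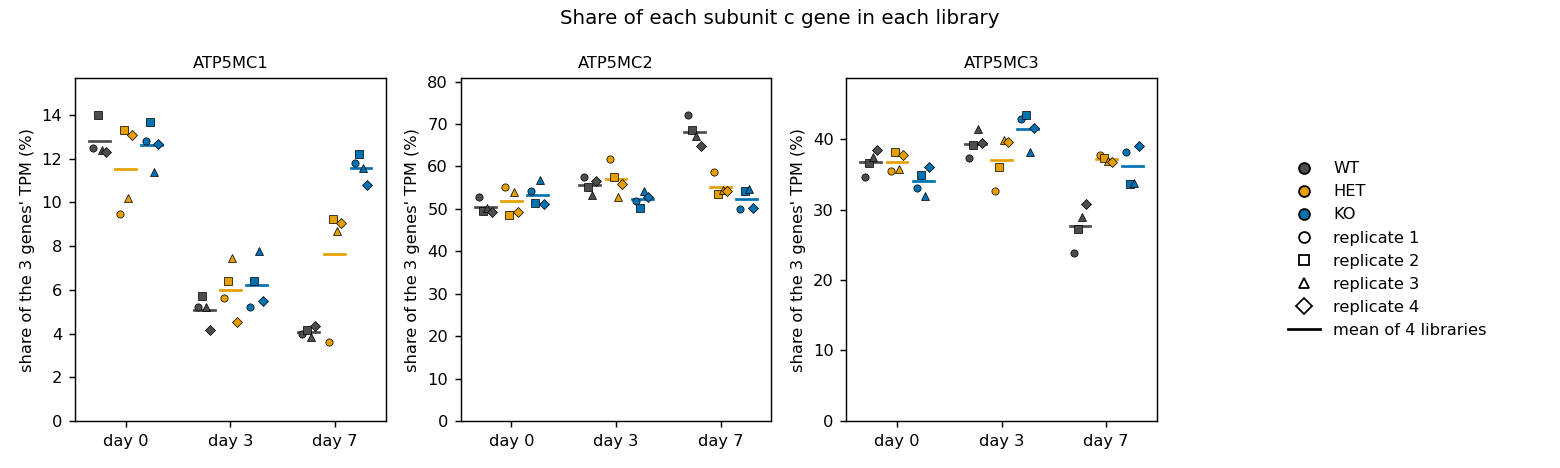
Share of ATP5MC1, ATP5MC2 and ATP5MC3 in their summed TPM (vertical axes, %) in each library, by day and genotype; symbols mark the replicate and lines the mean of 4 libraries. At day 7 ATP5MC1 takes 10.8 to 12.2% in KO and 3.86 to 4.34% in WT, with HET replicate 1 among WT.

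NDUFA5, an accessory subunit of the peripheral arm of complex I, had 87.3, 54.1, 63.4 and 49 CPM in WT, 80, 147.7, 125.3 and 132.6 in HET and 131, 123.1, 94.1 and 110.8 in KO. KO was above WT in every library (0.86, SE 0.22, adjusted p = 0.00968). In HET it was higher by 0.93 (SE 0.22, adjusted p = 0.0132; both edgeR), with replicate 1 below the highest WT library; it was the single member called there, and it was named for that after its value was seen. NDUFA12 had 22.4, 20.8, 26.6 and 26.8 CPM in WT and 37.1, 37.6, 36.6 and 31.5 in KO (0.56, SE 0.16, adjusted p = 0.0189, edgeR), and NDUFA9 rose by 0.55 (adjusted p = 0.032).
Of these calls, ATP5MC1 and NDUFA5 in KO held without any single library. That of NDUFA9 was lost without WT replicate 1, 2 or 3 or any one of the 4 KO replicates. That of NDUFA12 was lost without WT replicate 2 or KO replicate 1 or 2. That of ATP5MC2 was lost without WT replicate 1 or 3 or any one of the 4 KO replicates. The ATP5MC2 call was also lost with the small RNA share as a covariate (-0.41). With that covariate 13 members were higher and none lower, on rescaled TPM 11 higher and 1 lower, and on deposited TPM none was called. The members' median was then 0.26, 0.24 and 0.51, beside -0.02, 0.10 and 0.30 for all genes. Fewer than 5 members were called without any one library other than WT replicate 4: 2 without KO replicate 1 or 2 and 3 without each of the rest. Neuron markers at day 7 summed to 8540 to 10400 rescaled TPM in KO, 8060 to 10800 in HET and 4030 to 9070 in WT, and proliferation markers to 8.53 to 11, 12.3 to 15.4 and 17.9 to 94.2. The stem cell, muscle and heart, and mesenchyme lists did not overlap between KO and WT at day 7. Neural progenitor markers (56.4 to 147 in KO, 105 to 179 in WT) and glial ones (56.2 to 156, 78.9 to 181) did. Stem cell markers summed to 127 to 165 in KO and 42.6 to 55.9 in WT, with LIN28A at a mean of 131 and 10.7. DPPA4 went the other way, at 8.58 in KO and 37.2 in WT, while POU5F1, NANOG and TDGF1 were under 1 in both. Muscle and heart markers summed to 0.859 to 3.71 in KO and 29.4 to 62.3 in WT, and mesenchyme markers to 0.117 to 0.823 and 5.92 to 8.25. ACTC1 of the first list averaged 2 in KO and 40.1 in WT, and COL1A1 of the second 0.24 and 7.21. The part of the marker lists in the members' differences was not tested.

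In HET at day 7, 8.31% of all genes were called higher and 6.1% lower, and NDUFA5 was the single member called. This count rested on replicate 1, in which the small structural RNAs took 27.5% of counts and the 76 genes summed to 23070 rescaled TPM, beside 16020, 16330 and 20650 in replicates 2 to 4. Without it 31 members were called lower and 3 higher, with 34.6% of all genes called; without replicate 4, 5 lower and 1 higher; without replicate 2, none. In the 4 HET libraries UQCRC1 had 228.2, 100.8, 102.5 and 106.3 CPM, and SDHA 144.4, 72.2, 78.1 and 66.2. In KO against HET at day 7 ATP5MC1 was the single member called, beside 0.668% of all genes higher and 0.737% lower; it was not called without HET replicate 2 or KO replicate 1, 2 or 3, and without HET replicate 4 there were 4 members called.

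Of the supporting genes at day 7, CYCS rose by 1.19 in KO (adjusted p = 0.0272), to 137 ± 21.5 CPM against 60.3 ± 12 in WT (SD, n = 4). ATP5IF1, the inhibitor of ATP synthase, rose by 0.69 (adjusted p = 0.0112) and COX7A2L, which takes part in supercomplexes, fell by 0.59 (adjusted p = 0.0338; all edgeR). Of 56 assembly factors 7 rose, among them COX20 (1.09) and ATPAF1, which helps assemble the ATP synthase head (1.03), and CMC2 fell. These are smaller shares than the 17% of all genes called higher and the 15.6% called lower. PPARGC1B rose by 1.21 in KO and by 1.16 in HET. SUCLG2, a subunit of GDP-forming succinyl-CoA ligase, fell by 1.98 in KO and by 1.67 in HET, and CS, citrate synthase, fell by 0.42 in KO. No mitochondrially encoded subunit was called in either mutant.

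The change over time was compared between genotypes by an interaction term over all 36 libraries. From day 0 to day 3, 1 member, NDUFS3, changed differently in KO. Its mean went from 53.8 to 62.5 CPM in WT and from 50.5 to 35.6 in KO, a difference of -0.72 on the log2 scale (SE 0.21, adjusted p = 0.0251, edgeR). Over 24764 genes 5.37% had a higher and 3.19% a lower change. The call on NDUFS3 was lost without WT replicate 3 of day 0 or day 3 or KO replicate 1 or 2 of day 3, and 5 members were called without KO replicate 4 of day 3. From day 3 to day 7, 6 members changed more upward in KO and none more downward, where 7.6% of all genes were higher and 10.9% lower. These were NDUFB2 (1.26, SE 0.43, adjusted p = 0.0386), NDUFC1 (1.22, SE 0.31, adjusted p = 0.00541), ATP5MC1 (1.16, SE 0.29, adjusted p = 0.00372), NDUFB6 (1.08), NDUFA12 (1.07) and NDUFS3 (0.77; all edgeR). NDUFC1 had 9.93, 9, 10.3 and 14.9 CPM in WT at day 3 and 3.54, 3.99, 7.89 and 8.48 in KO, and 6.39 to 9.42 in WT and 9.62 to 11.7 in KO at day 7. Of the 74, 65 had a difference above 0, with a median of 0.36. The count was 14 without KO replicate 3 or 4 of day 3, and 41, all upward, with the small RNA share as a covariate. The 7.6% and 10.9% of all genes belong to the main fit and are no background for these counts.
In HET no member was called in either interval by edgeR. At an unadjusted p under 0.05 there were none from day 0 to day 3 and 3 from day 3 to day 7, and DESeq2 called none and 1. Of all genes, 0.182% were higher and 0.0888% lower in the first interval and 2.06% and 2.69% in the second. Without HET replicate 1 of day 7, 3 members were called in the second interval, and without WT replicate 1 of day 3 or of day 7, 1 was.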

How the data were processed

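Members and gene lists were chosen with earlier results of these data known. Per the labels' protocols, ribosomal RNA was removed from total RNA and both ends of each fragment were read for 151 bases. Per the submitters' processing notes, STAR 2.7.8a, RSEM 1.3.3, cutadapt 4.8, FastQC 0.11.8 and MultiQC 1.20 were used on GRCh38; strand use and annotation release are not given in the sources used here. The authors deposited expected counts per gene (whole numbers), TPM and FPKM; the FPKM served only to recover effective lengths. Counts were rounded and 4 reporter rows (at most 0.0171% of a library) left out.

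Genes passing filterByExpr were tested with edgeR 4.0.16 (R 4.3.3; TMM, quasi-likelihood F test, Benjamini-Hochberg over all genes tested, threshold 0.05). The 12 libraries of a day were fitted together for genotype, the 12 WT libraries for time, and all 36 for interactions. Fold changes are on the log2 scale with a prior count of 0.125. Levels are CPM over TMM-scaled library sizes. Alternatives used DESeq2 1.42.0 and limma 3.58.1 on log2(TPM + 1), kept for genes with a TPM of at least 0.5, among others; fits were tested on simulated data. Arms of 4 libraries limit precision, and leaving out a library leaves 3.

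Named genes are core subunits, isoform groups, the members of highest and lowest mean TPM, and up to 3 called risers and 3 fallers per comparison with at least 5 CPM and no overlap between groups. Other called members were named where few.

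Replicate numbers come from the labels. Same-numbered libraries deviated together, with every correlation over 0.1, for KO and WT at day 0 (0.265 to 0.649), KO and WT at day 3 (0.142 to 0.554) and HET and WT at day 3 (0.168 to 0.772), and not in the other comparisons. Correlation between replicates of a group over genes was 0.952 to 0.996. The 76 genes matched GENCODE 29 by Ensembl identifier, and 49 overlap another annotated gene.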

Additional observations from a re-analysis of the deposited data

Results flagged for a closer look

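In 16 of 243 groups of 4 libraries tested, 1 library lay far from the others by Dixon's test at the 95% level, where chance gives about 12. Values are CPM unless named otherwise. At day 0, all in replicate 4, COX4I1 in WT had 102 (others 89.4 to 90.8) and NDUFA12 in WT 29.2 (32.5 to 32.9). Also in replicate 4, complex IV in HET summed to 3970 rescaled TPM (3320 to 3370) and complex III in KO to 1760 (1580 to 1600), while NDUFA13 in KO had 90.2 (79.2 to 80.9) and NDUFB6 in KO 27.8 (21.7 to 22.4). At day 3, NDUFA12 in WT replicate 4 had 36.3 (32.3 to 32.7) and NDUFB6 in WT replicate 3 had 54.2 (37.3 to 37.4). In HET at day 3, replicate 4 had 185 for SDHA (80.3 to 94.9) and 13.1 for NDUFC1 (7.52 to 8.15), and replicate 2 had 34.2 for NDUFB2 (62.2 to 67). In HET at day 7, replicate 1 had 144 for SDHA (66.2 to 78.1) and 228 for UQCRC1 (101 to 106), and replicate 4 had 18.5 for ATP5MC1 (15 to 15.6). In KO at day 7, complex II in replicate 2 summed to 279 rescaled TPM (291 to 293) and NDUFB4 in replicate 4 had 34.1 (40.4 to 41.5).

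By edgeR's interaction test, 6 members passed the threshold for a different time course in KO than in WT, NDUFS3 in both intervals (log2 scale). From day 0 to day 3 it was -0.72 for NDUFS3. From day 3 to day 7 it was 1.26 for NDUFB2, 1.22 for NDUFC1, 1.16 for ATP5MC1, 1.08 for NDUFB6, 1.07 for NDUFA12 and 0.77 for NDUFS3.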

How the results depend on the processing

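Of 150 counts of called members under alternatives that kept all libraries, 103 stayed within 1.5 times the reported count. The rest follow, and where no value shows the cause, it was not tested. KO against WT at day 3 (5 reported) gave 10 with library size alone, 0 with limma on log2(TPM + 1), 14 with a covariate for the share of small structural RNAs, 31 with the replicate block and 27 with that block and the effective length offset. KO against WT at day 7 (5) gave 0 on TPM, 13 with the covariate and 12 on rescaled TPM. HET against WT gave 2 with the replicate block at day 0 (1), and 1 each with the covariate, the block and the block with offset at day 3 (0). At day 7 (1) it gave 2 with library size alone, 4 with DESeq2, 0 on TPM, and 2 each with the block, rescaled TPM and the block with offset. KO against HET gave 4, 3 and 3 with the covariate, the block and the block with offset at day 3 (0). At day 7 (1) it gave 5 with DESeq2, 7 with the covariate and 0 with library size alone, TPM, rescaled TPM and the block with offset. In WT, day 3 against day 0 (54) gave 32 with the covariate, and day 7 against day 3 (33) gave 55 on TPM and 50 with the covariate. For the KO interaction from day 0 to day 3 (1), library size alone, DESeq2, the block and rescaled TPM gave 3 each, no filter and TPM 0, the covariate 5 and the block with offset 2. From day 3 to day 7 (6) it was 14 with library size alone, 11 with DESeq2 size factors, 15 with DESeq2, 41 with the covariate, 18 on rescaled TPM, 10 with the offset and 15 with offset and block. The HET interaction from day 3 to day 7 (0) gave 1 with DESeq2 and 1 with the covariate. Rescaled TPM and the length offset were chosen after seeing the data. Where the calls over all genes under an alternative are not printed, its count cannot tell a change in the members from one in all calls. Leaving out 1 library at a time gave 1 to 4 members for HET against WT and 0 to 2 for KO against HET at day 0, and 2 to 12 for KO against WT at day 3. At day 7 it gave 2 to 5 for KO against WT, 0 to 34 for HET against WT and 0 to 4 for KO against HET. In WT it gave 47 to 54 and 26 to 39, and for the interactions 0 to 5 and 5 to 14 in KO and 0 to 3 in HET from day 3 to day 7. NDUFB4 at day 0 was called in both mutants under each alternative, while ATP5MC1 and NDUFA5 at day 7 and SDHD and NDUFS3 at day 3, in KO, lost their calls on the deposited TPM alone (ATP5MC1 at 1.53). No fold change of the risers and fallers named per comparison reversed. Of the core subunits named as rising at day 3 in WT, ATP5F1A, ATP5F1B and UQCRFS1 went the other way on the deposited TPM. Every library of day 3 was there below every library of day 0, while NDUFV1, UQCRC1 and SDHA overlapped. The members' median for WT day 3 against day 0 went from 0.67 to -0.35 on the deposited TPM, where that of all genes was -0.63. Arms of 4 libraries and low counts limit what could be called.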
